A study of Mus musculus with 8 samples.

Results

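The forkhead factor genes of the mouse were followed through open chromatin in SN4741 cells at 2 temperatures. The family comprised every protein-coding gene of GENCODE release M21 whose symbol is Fox, a letter from a to s and a number, without Foxa1, Foxa2 and Foxm1, and the rule found 41 such genes among 21938 protein-coding genes. The assay was ATAC-seq, which sequences the DNA that a transposase can reach in nuclei, and it gave 1 list of peaks (open chromatin regions) for each of 8 libraries. A promoter peak here is a peak within 1 kb of any annotated transcription start site (TSS) of the gene, and a locus is the gene body plus 20 kb on each side. SN4741 is a cell line labelled as neural precursor cells with genotype WT, started from embryonic mouse substantia nigra and carrying a temperature-sensitive SV40 T antigen driven by the tyrosine hydroxylase (Th) promoter. The study says that the line has been reported as clonal, and itself found it polyploid and unstable in karyotype, so copy number may differ between cells. The 4 libraries of undifferentiated cells represent growth at 37 °C, the permissive temperature, in 10% serum (37C). The 4 libraries of differentiated cells represent 48 h at the non-permissive 39 °C in 0.5% serum (39C), so temperature, serum and loss of T antigen cannot be told apart.

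The libraries differed in depth. The peak caller kept 49.8 to 169 M fragments at 37C and 52.7 to 71.2 M at 39C, and 37C replicates 1 and 4 were the only libraries above 100 M. The lists held 74026 to 92013 peaks at 37C and 54845 to 68410 at 39C. Of 8 neural precursor markers 5 had a promoter peak in every library, as had 4 of 8 dopaminergic neuron markers (En1, Nr4a2, Pitx3 and Th) and 6 of 6 mesenchyme markers, whereas none of 4 endothelial and none of 4 blood markers did. Of all protein-coding genes 59.9% did. Peaks in fewer libraries (number at 37C and at 39C) were found at Sox1 (4 and 3) and Hes5 (2 and 0) of the neural precursor markers. The other dopaminergic markers were Aldh1a1 (4 and 3), Lmx1b (4 and 2), Slc6a3 (4 and 1) and Lmx1a (1 and 0). Pecam1 (4 and 3) and Kdr (4 and 0) were endothelial, and Spi1 (3 and 0) was a blood marker. Nothing in the labels says that replicates were separate cultures, and all p-values measure only the spread between these libraries.

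Forkhead factors share a winged-helix DNA-binding domain that reads a common core sequence, and many members act in particular tissues. FOXO proteins are held in the cytoplasm by insulin and growth factor signalling through AKT and enter the nucleus when serum is withdrawn, where they act on genes of cell cycle arrest, survival and stress. FOXP proteins are repressors that act in neural development, FOXC, FOXD and FOXF proteins pattern mesoderm and mesenchyme, and Foxk1, Foxk2, Foxn2 and Foxn3 are broadly expressed.

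Most forkhead promoters were open at both temperatures. A promoter peak was found in at least 1 library for 33 of 41 genes (80.5%, against 68.7% of all protein-coding genes) and in all 8 libraries for 29 (70.7%, against 59.9%). All 11 broadly expressed members (Foxj2, Foxj3, Foxk1, Foxk2, Foxn2, Foxn3, Foxo1, Foxo3, Foxo4, Foxp1 and Foxp4) and all 8 members of mesoderm and mesenchyme (Foxc1, Foxc2, Foxd1, Foxd2, Foxf1, Foxf2, Foxl1 and Foxs1) had one in every library. Among 9 members of the nervous system 6 did, among them Foxb2, Foxd4, Foxj1, Foxn4 and Foxo6, and among 13 members of other tissues 4 did (Foxa3, Foxh1, Foxl2 and Foxp3). No library had a promoter peak at 8 genes: Foxb1 and Foxp2 of the nervous system, and Foxi1, Foxi2, Foxi3, Foxq1, Foxr1 and Foxr2. Foxp2, a gene of vocal and motor circuits, thus lacked a promoter peak while its relatives Foxp1 and Foxp4 had one throughout. Some promoter peaks covered the TSS of another gene (Sympk at Foxa3, Ppp1r16a at Foxh1, Frg2f1 at Foxj3 and Ppp1r3f at Foxp3), so the signal cannot be assigned to the forkhead gene alone. This holds for Foxp3, the regulatory T cell factor. At Foxh1 the peak held the Ppp1r16a TSS but in no library reached the Foxh1 TSS, and its summit was 1658 to 1723 bp upstream.

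**Figure D1:**
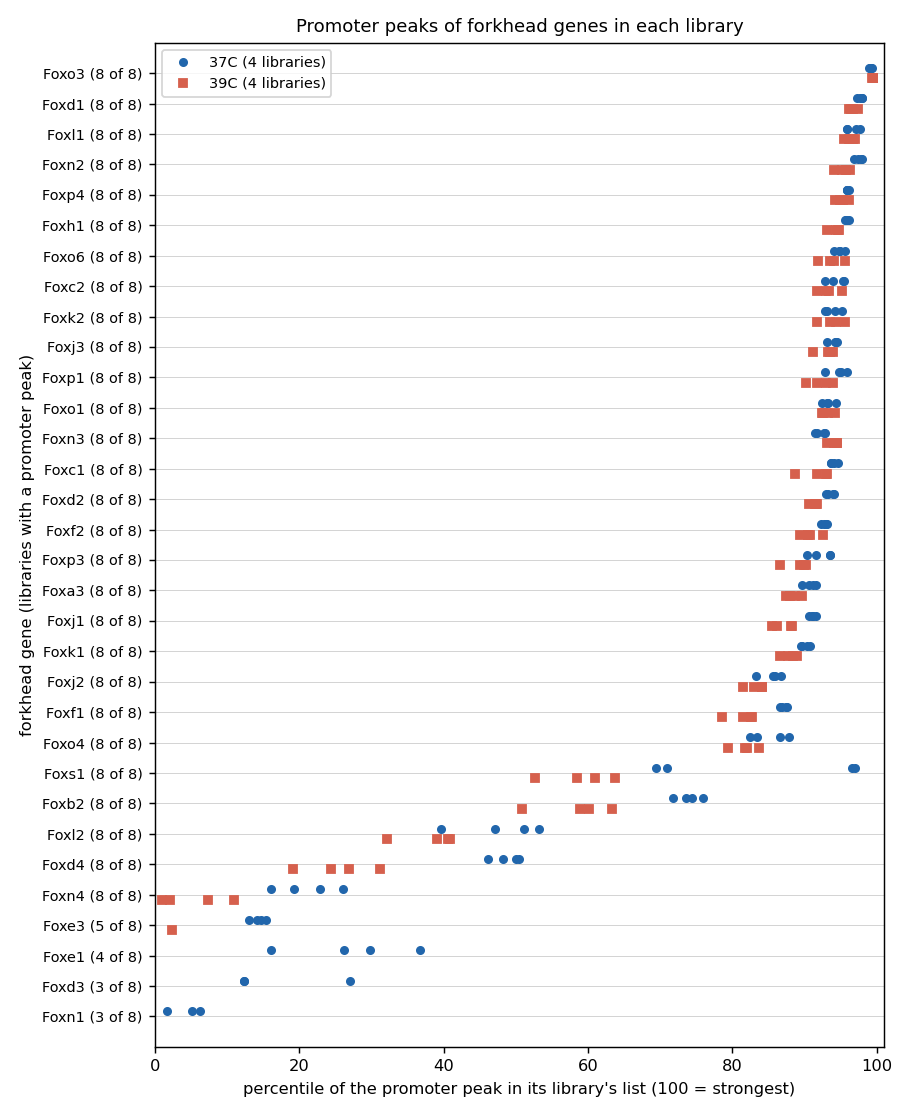
Percentile of the promoter peak in its library's list (x axis, 100 is the strongest peak) for 32 of the 33 forkhead genes with a promoter peak in any library (y axis, with the number of libraries out of 8), each circle a 37C library and each square a 39C library. Foxo3 lies at 98.9 or above in all 8 libraries, and Foxe1, Foxd3 and Foxn1 have circles only.

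Strength was compared as the percentile of a peak in its own list, ordered by the peak caller's −log10 q, with 100 the strongest. By the mean over all 8 libraries the highest forkhead promoters were Foxo3, Foxd1 and Foxl1, although Foxn2 stood above Foxl1 in every 37C library, and the lowest with a peak in every library were Foxl2, Foxd4 and Foxn4. Foxd1, a factor of kidney stroma and forebrain, stood at 97.7, 98.0, 97.3 and 98.0 at 37C and 97.5, 96.7, 96.4 and 96.2 at 39C. Foxl1, a marker of gut mesenchyme, stood at 97.7, 96.0, 95.9 and 97.1 and then at 97.0, 96.7, 96.2 and 95.5. Both promoters were among the strongest 5% of peaks at both temperatures. The Foxl1 value belongs to a broad peak of 4706 to 9274 bp that reached the promoter and had its summit 2327 to 2482 bp from the TSS in every library. Foxn4, a factor of retinal and spinal interneurons, was at the other end with 19.2, 26.0, 16.0 and 22.9 at 37C and 10.9, 2.0, 7.4 and 1.0 at 39C. These values did not overlap between temperatures, but the spread among the 39C libraries was wide and the adjusted p was 0.077. Foxl2, the ovarian factor, had 53.2, 47.2, 39.6 and 51.1 at 37C and 40.8, 39.0, 40.6 and 32.2 at 39C, with overlapping values and an adjusted p of 0.0676. Its difference was −0.25 in the whole list and 0.22 on the common scale (adjusted p 0.14).

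For the test, percentiles were turned into normal scores and compared by limma across all genes with a promoter peak in every library, with Benjamini-Hochberg adjustment. Of 29 forkhead promoters, those with a peak in all 8 libraries, 15 were lower at 39C, where 61.1% of all promoters tested were lower, and 2 were higher, where 0.563% were. The median difference (39C minus 37C, in normal scores) was −0.14 over the forkhead promoters and −0.16 over all promoters, so a fall of this size was shared by promoters at large. The 37C lists were longer, and a peak in a longer list has more weak peaks below it, but the part of list length in this fall was not tested. Ranks were also taken among the regions called in all 8 libraries, where the median of all promoters was −0.0019. A region weak at 37C entered this set only if every 39C list, all of them shorter, called it too. Rises of weak regions on this common scale passed through that selection. On this common scale 3 forkhead promoters were lower (Foxb2, Foxn2 and Foxs1), against 11.8% of all promoters, and 2 were higher (Foxn3 and Foxo3), against 7.3%. The value of Foxs1 on this scale is that of a merged region with its summit 7455 bp from the TSS, and its own promoter peak was not ranked there. The share of forkhead promoters called in each direction was therefore close to that of all promoters on this scale. With lists trimmed to equal numbers of peaks 2 were lower (Foxb2 and Foxn2) and 2 were higher (Foxn3 and Foxo3).

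**Figure D2:**
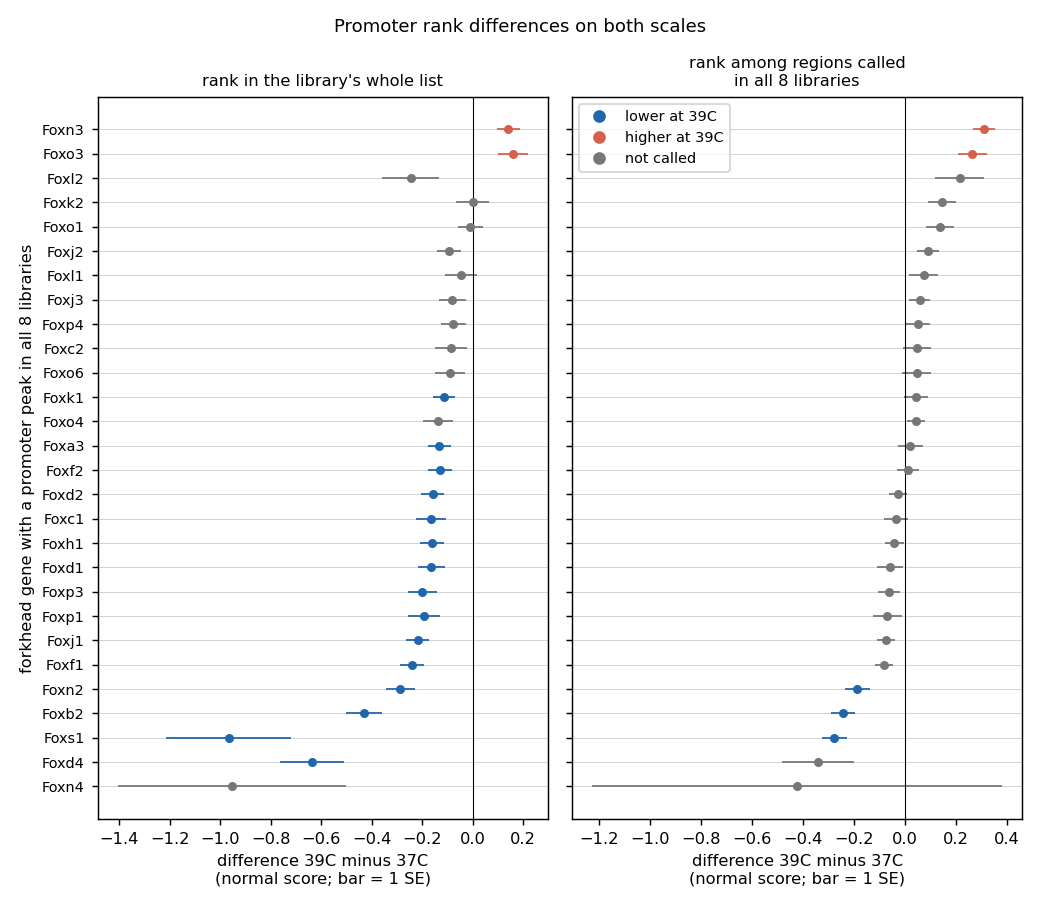
Difference in promoter rank, 39C minus 37C, in normal scores (x axes, bars 1 SE, 4 libraries per group) for 28 of the 29 forkhead genes with a promoter peak in all 8 libraries (y axis), by rank in the whole list on the left and among regions called in every library on the right. Foxo3 and Foxn3 are above 0 and called on both sides, and 15 genes are called lower on the left but 3 on the right, where the value of Foxs1 is that of a merged region with its summit 7455 bp away.

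Foxo3, a FOXO factor of quiescence and stress resistance, rose. Its promoter peak stood at percentile 99.3, 99.0, 98.9 and 99.3 at 37C and at 99.5, 99.5, 99.4 and 99.5 at 39C. Every 39C value was above every 37C value, although the peak was already near the top of each list. The difference was 0.16 (SE 0.058, adjusted p 0.0276) in the whole list and 0.27 (SE 0.0568, adjusted p 0.00538) on the common scale. The call in the whole list was lost without 37C replicate 2 or 3 or 39C replicate 2 or 4, with adjusted p between 0.0545 and 0.0856. The peak had the same summit in all 8 libraries, 1199 bp from the nearest TSS, and a median width of 5573.5 bp. The bases within 50 bp of that summit are given here as the promoter that rose; capitals mark the forkhead core GTAAACA or its reverse complement TGTTTAC in this and later sequences, and this window held none.
Foxo3 promoter summit, chr10:42277904-42278004: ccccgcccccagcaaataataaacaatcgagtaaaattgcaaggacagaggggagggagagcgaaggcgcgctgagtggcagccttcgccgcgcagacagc

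The other FOXO genes did not pass the test over genes in either direction. In the test over regions, given further below, the Foxo1 promoter region was called higher on the common scale. Foxo1, the insulin-responsive member, had 92.5, 94.3, 93.2 and 93.1 at 37C and 94.3, 93.3, 92.6 and 92.4 at 39C. These values overlapped, and the difference was −0.01 in the whole list (adjusted p 0.862) and 0.14 on the common scale (adjusted p 0.0919). Foxo4 had 86.7, 83.4, 82.4 and 87.8 at 37C and 82.0, 81.7, 83.7 and 79.4 at 39C, with a difference of −0.14 (adjusted p 0.0503) and 0.04 on the common scale. Foxo6, the member found mainly in brain, had 94.1, 95.6, 95.0 and 94.8 at 37C and 94.1, 93.6, 95.5 and 91.9 at 39C, with a difference of −0.09 (adjusted p 0.20) and 0.05 on the common scale. Whether Foxo3 differed from the other FOXO genes was not tested.

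Regions inside Foxo3 next to the promoter went the other way. The locus held 20 regions, 7 of them called in every library. A region in the gene 14852 bp downstream of the start (chr10:42260206-42262930) stood at 75.7, 73.7, 69.9 and 78.7 at 37C and at 62.2, 61.5, 55.5 and 47.3 at 39C, without overlap. It fell on the common scale by 0.33 (adjusted p 0.000502). A weaker intronic region 7213 bp from the start (chr10:42268476-42270147) went from 51.4, 40.0, 29.3 and 54.3 to 25.3, 13.8, 16.4 and 6.1, also without overlap, and fell by 0.68 on the common scale (adjusted p 0.00656). A region upstream of the start (chr10:42293143-42295451) fell as well, by 0.14. A region past the 3′ end, 105674 bp from the start, rose by 0.54 on the common scale (adjusted p 0.000755). The sequence at the region with the strongest support for a fall follows, for comparison with the promoter.
Foxo3 intron summit, chr10:42261853-42261953: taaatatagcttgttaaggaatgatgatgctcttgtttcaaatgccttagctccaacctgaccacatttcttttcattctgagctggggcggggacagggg

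Foxn3, a repressor that acts at cell cycle checkpoints, rose at an internal start. The gene has 14 annotated TSSs, and its strongest promoter peak lay 24 bp from one of them, 170486 bp inside the gene (chr12:99391175-99394264), where 2 protein-coding transcripts begin. That peak stood at 91.4, 92.9, 91.7 and 92.8 at 37C and at 94.5, 94.1, 94.6 and 93.1 at 39C. All 39C values were higher, with a difference of 0.14 (SE 0.0471, adjusted p 0.0184) in the whole list and 0.31 (SE 0.0427, adjusted p 0.000209) on the common scale. Without 37C replicate 1 the adjusted p in the whole list was 0.0605, and in the 6 libraries below 100 M fragments it was 0.0901. The region at the 5′ end of the gene (chr12:99562071-99563973) went the other way, from 60.8, 61.1, 57.8 and 65.9 to 48.2, 40.4, 45.7 and 24.8. It fell by 0.33 on the common scale (adjusted p 0.00732). The gap between the internal and the 5′ start, compared after these values were seen, was 1.54 ± 0.031 normal scores in the 37C libraries and 2.18 ± 0.16 in the 39C libraries (SD, n = 4) on the common scale, and was given no test because each start had been seen to move. In the locus 7 regions were called in every library. Of these 5 rose on the common scale, against 20.2% of all regions tested, and 1 fell, against 22.2%. The largest of these differences was at an intronic region (chr12:99376924-99377704) with 13.7, 4.2, 1.4 and 12.9 at 37C and 20.9, 28.3, 32.7 and 14.3 at 39C, weak peaks whose values did not overlap, and a difference of 1.74 on the common scale (adjusted p 0.000191). Its mean percentile on that scale went from 0.077 at 37C, at the very bottom, to 7.5 at 39C, and small steps there are large in normal scores. In the whole list its difference was 0.82 (adjusted p 0.028), a call that was lost without 37C replicate 3 or 39C replicate 2 or 3.

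The promoter peaks of Foxn2 and Foxb2 were lower on both scales, whereas the common-scale call at Foxs1 belongs to a merged region. Foxn2, a broadly expressed forkhead gene, had 97.8, 96.8, 97.5 and 98.0 at 37C and 95.3, 95.7, 96.3 and 94.1 at 39C, without overlap. Its difference was −0.29 (SE 0.0585, adjusted p 0.00155) in the whole list and −0.18 (SE 0.0485, adjusted p 0.0164) on the common scale. Foxb2, a gene of the developing diencephalon and spinal cord, had 73.6, 74.4, 71.7 and 75.9 at 37C and 60.1, 59.0, 63.3 and 50.8 at 39C. These groups were apart too, and the difference was −0.43 (SE 0.0711, adjusted p 0.000482) and −0.24 (SE 0.0458, adjusted p 0.00247) on the 2 scales. The Foxb2 peak had its summit inside the gene, 1043 to 1242 bp from the TSS. In 39C replicates 1, 3 and 4 it ended before reaching the TSS. With 500 bp around the TSS the whole-list difference at Foxb2 was −0.79 (SE 0.273, adjusted p 0.0217). Foxn2 and Foxb2 were lower also with equal numbers of peaks. Foxs1, a gene of pericytes and sensory ganglia, had 96.6, 71.0, 69.5 and 97.0 at 37C and 63.8, 58.4, 61.0 and 52.6 at 39C. The high values of 37C replicates 1 and 4, the deepest libraries, belonged to peaks of 9020 and 10950 bp that ran into a stronger peak with its summit 7455 bp away, whereas the other 6 libraries had a separate peak of at most 1422 bp. Without those 2 libraries the difference was −0.30 in place of −0.97 (adjusted p 0.0174), and with equal numbers of peaks it was −0.86 (SE 0.295) and not called (adjusted p 0.0636).

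The other members lower in the whole list were lower by 0.11 to 0.64 normal scores, and on the common scale none of them passed the test. Foxd4 fell the most of these, from 50.5, 46.2, 48.2 and 50.1 to 24.4, 26.9, 31.2 and 19.1, by 0.64 (adjusted p 0.00144), and its common-scale difference was −0.34 (adjusted p 0.111). Foxf1, which is needed for lung and gut mesenchyme, went from 87.5, 86.6, 86.9 and 87.6 to 82.5, 81.5, 82.8 and 78.6, a difference of −0.24 (adjusted p 0.00122) and of −0.08 (adjusted p 0.127) on the common scale. Foxj1, the regulator of motile cilia, went from 91.2, 91.0, 90.6 and 91.6 to 88.1, 86.3, 88.2 and 85.5, a difference of −0.22 (adjusted p 0.00181) and of −0.07 (adjusted p 0.175) on the common scale. Values of these 3 genes did not overlap between temperatures. Among the other genes of mesoderm and mesenchyme, Foxc1, a factor of eye, vessel and skull development, had 94.0, 93.7, 93.6 and 94.6 at 37C and 93.0, 93.2, 91.7 and 88.7 at 39C. Foxd2, a neighbour of Foxe3, had 94.1, 93.3, 93.0 and 94.0 and then 91.7, 91.7, 91.4 and 90.6. Foxf2, a factor of brain pericytes and palate, had 93.0, 92.8, 92.2 and 93.2 and then 92.5, 90.8, 90.4 and 89.4. The groups were apart for Foxc1 and Foxd2, and for Foxf2 39C replicate 1 overlapped the 37C values. Foxh1, a partner of SMAD proteins in nodal signalling, had 95.9, 95.7, 95.7 and 96.2 at 37C and 94.7, 94.3, 94.8 and 93.1 at 39C. Foxa3, a liver and gut factor, had 89.7, 91.6, 91.2 and 90.7 and then 87.9, 88.6, 89.7 and 87.4. Foxp3 had 93.5, 90.3, 91.7 and 93.6 and then 89.9, 89.4, 90.2 and 86.5. All 39C values were below all 37C values for these 3 genes, whose peaks held the TSS of another gene. The Foxh1 peak did not reach the Foxh1 TSS, with its summit 1658 to 1723 bp upstream of it. Foxp1 had 95.9, 94.8, 92.8 and 95.1 at 37C and 94.0, 93.0, 91.7 and 90.2 at 39C, with overlap. The strongest promoter peak of Foxp1 was at an internal start in 7 libraries (chr6:99026839-99029440 in 37C replicate 3), but the 91.7 in 39C replicate 3 came from the peak at its 5′ end (chr6:99519068-99524091). Foxc1, Foxd1, Foxd2, Foxh1, Foxp1 and Foxp3 had differences of −0.16 to −0.20 in the whole list and of −0.07 to −0.03 on the common scale. Foxa3, Foxf2 and Foxk1 had differences of −0.11 to −0.13 in the whole list and of 0.01 to 0.05 on the common scale.

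Promoter peaks that were present in some libraries only were weak and favoured 37C. Of the 41 genes, Foxe1 had a promoter peak in every 37C library and in no 39C library, where 1.46% of all protein-coding genes showed this pattern, and no member showed the opposite, where 0.0137% did. Foxe1, a thyroid factor, had percentiles of 26.2, 29.8, 16.0 and 36.7 at 37C. Foxe3, the lens factor, had 13.0, 14.7, 14.2 and 15.4 at 37C and a peak at 2.4 in 39C replicate 3 alone. Foxd3, the neural crest factor, had peaks in 37C replicates 1, 2 and 3, at 12.4, 27.0 and 12.3. Foxn1, the thymus factor, had peaks in 37C replicates 1, 2 and 4, at 6.3, 1.7 and 5.1. These were not the same peak. In replicates 1 and 2 the summit was inside the gene, 1102 and 1507 bp from the TSS. In replicate 4 it was 732 bp away on the other side of the TSS. No member had more libraries with a promoter peak at 39C, as was the case for 103 of all 21938 genes, while 1748 had more at 37C. By Fisher's exact test of 4 against 4 libraries, adjusted over all genes, 0 promoters passed and 324 had an unadjusted p below 0.05. The count of restricted members was 2 in place of 1 when 37C replicate 3 or 4, or 39C replicate 3, was left out. With equal numbers of peaks no member was restricted to either temperature, and 28 or 29 members had a promoter peak in each library of both groups, in place of 32 or 33 at 37C and 29 or 30 at 39C.

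The 41 loci held 240 of 84777 regions found in at least 2 libraries. Of these 42 were at forkhead promoters, 27 only at promoters of other genes and 171 outside promoters, and the summits of 131 lay in introns, 67 between genes and 42 in exons. No region was found at Foxb1, Foxi1, Foxi2 and Foxi3, while Foxp1 held 43 and Foxo3 held 20. More regions were called in every 37C library than in any 39C library at 7 loci (Foxe1, Foxh1, Foxj2, Foxl1, Foxn1, Foxn2 and Foxs1), against 21.6% of all genes, and the opposite occurred at no locus, against 0.219%. The Foxn1 locus had 13, 12, 9 and 13 regions at 37C and 7 in each 39C library, and the Foxs1 locus had 9, 7, 8 and 8 and then 4 in each. For these loci the two-sided exact permutation p was 0.0286, and no locus passed after adjustment over all genes (smallest adjusted p 0.131). Without 37C replicate 3 the 7 loci became 11. With equal numbers of peaks 3 loci had more regions at 37C and 2 had more at 39C. In the 6 libraries below 100 M fragments, 2 at 37C and 4 at 39C, 6 loci had more regions at 37C and 0 had more at 39C. Every 37C list was longer than every 39C list, so list length moved with temperature, and its part in these numbers was not tested beyond these values.

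**Figure D3:**
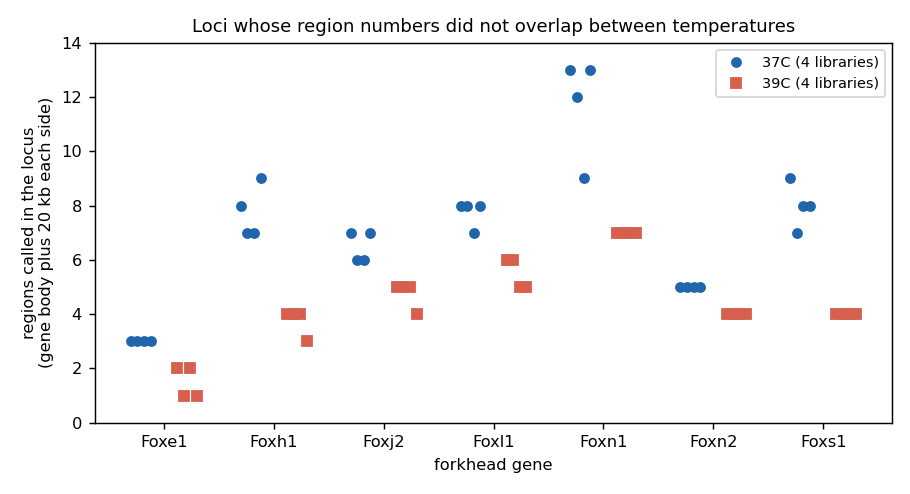
Number of regions called in the locus (y axis, gene body plus 20 kb on each side) in each library for the 7 forkhead loci whose numbers did not overlap between temperatures, with circles for the 4 libraries at 37C and squares for the 4 at 39C. Foxn1 has 9 to 13 regions at 37C and 7 at 39C, and Foxs1 has 7 to 9 and then 4.

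Regions present in every 37C library and in no 39C library numbered 8 of 240, against 6.04% of all regions, and 0 were restricted to 39C, against 0.314%. They comprised the Foxe1 promoter (chr4:46342532-46345319), 2 regions of Mylk2 near Foxs1 (chr2:152918688-152919394 and chr2:152921980-152923060), 2 at Foxn1 (chr11:78384921-78385661 and chr11:78394327-78396118), 2 at the promoter of Cyhr1 near Foxh1 (chr15:76645808-76650215 and chr15:76650512-76651899) and 1 in a Foxn2 intron (chr17:88459869-88460695). The first Foxn1 region reached within 1 kb of the Foxn1 TSS, so 2 of the 8 were at forkhead promoters. The strongest was the Cyhr1 region, at 48.3, 45.2, 37.7 and 47.9 in the 37C libraries. The Foxn2 intron followed at 40.9, 37.3, 26.8 and 43.7. The weaker Cyhr1 region stood at 20.4, 17.5, 8.3 and 26.6, and the 2 Mylk2 regions stood at 11.7, 14.7, 4.5 and 10.4 and at 38.1, 28.0, 24.1 and 40.1. The 2 at Foxn1 were close to the bottom of the lists, at 6.3, 1.7, 1.4 and 4.3 and at 6.9, 8.8, 1.4 and 16.2. No region passed Fisher's exact test after adjustment over all regions (smallest adjusted p 0.45), and 5386 had an unadjusted p below 0.05. Without 37C replicate 3 the 8 regions became 22. With equal numbers of peaks 3 of 159 forkhead regions were restricted to 37C, against 2.67% of all regions, and 5 to 39C, against 1.92%. The former were the Foxn2 intron, the stronger Cyhr1 region and 1 near Foxj2 (chr6:122801209-122802134), and the latter were 4 in Foxp1 introns and 1 in a Foxn3 intron. In the whole lists those 5 were called in 2 to 4 of the 4 libraries at 37C, so they were restricted to 39C only after trimming, whereas the Foxn2 intron and the Cyhr1 region were in no 39C list. The Foxe1 promoter and the Foxn2 intron are shown. Outside Foxn1 they are the forkhead promoter and the forkhead intron that the whole lists restrict to 37C. Neither window held the forkhead core.
Foxe1 promoter summit, chr4:46342926-46343026: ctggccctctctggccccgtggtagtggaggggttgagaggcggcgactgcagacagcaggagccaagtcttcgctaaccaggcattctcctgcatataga
Foxn2 intron summit, chr17:88460419-88460519: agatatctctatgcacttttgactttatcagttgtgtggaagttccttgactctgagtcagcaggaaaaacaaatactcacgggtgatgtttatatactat

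Among the 139 forkhead regions called in every library, 78 were lower and 5 higher at 39C by rank in the whole list, against 62.8% and 1.62% of all regions tested. On the common scale 29 were lower, against 22.2%, and 33 were higher, against 20.2%. The split between higher and lower was thus near that of all regions. At least 1 lower region was found at 18 loci, at least 1 higher region at 14 and both at 8, and no matching share was taken over the loci of all genes. The 5 higher calls in the whole list fell to 2 without 39C replicate 2 or 3, and to 3 without 37C replicate 2 or 3 or 39C replicate 1. Foxp1 and Foxn3 together held 13 of the 33 higher regions, and they held 26 and 7 of the 139 regions tested. The 4 regions of Foxn1 that were called lower came with none higher, out of 7 tested. Foxo1 had 3 higher and none lower out of 5, among them the promoter region, whose adjusted p was 0.0389 over regions and 0.0919 over genes.

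Foxp1, a repressor of neural, immune and muscle development, carried changes in both directions. Its 26 regions called in every library included 8 that were higher and 5 that were lower on the common scale, where 20.2% and 22.2% of all regions tested were. Calls in both directions were thus usual among regions at large. Up to 299 kb from its 5′ end, the midpoint of the gene, 8 regions were tested, of which 3 were lower and 1 higher. Beyond it 18 were tested, of which 2 were lower and 7 higher. This split was made after the values were seen and was given no test. The region with the largest rise, in an intron 508848 bp from the start (chr6:99013512-99014526), stood at 13.0, 8.8, 12.3 and 11.3 at 37C and at 32.9, 44.1, 28.0 and 22.1 at 39C. The values did not overlap, with a difference of 0.73 (adjusted p 0.0123) in the whole list and 1.75 on the common scale. On that scale its mean percentile went from 0.34 at 37C to 13.9 at 39C. It thus began at the bottom, where small steps in percentile are large in normal scores. A neighbour 526135 bp from the start (chr6:98995823-98997042) had 26.7, 7.2, 8.3 and 27.8 at 37C and 39.3, 36.0, 41.7 and 23.5 at 39C, with overlapping values and differences of 0.62 (adjusted p 0.0147) and 1.59. Its mean percentile on the common scale likewise began at the bottom, at 0.60 at 37C, and was 16.4 at 39C. In the whole list the call at this neighbour was lost without 37C replicate 2 or 39C replicate 1 or 3, and the call at the former was lost without 39C replicate 2 (adjusted p 0.0916). The region with the strongest support for a fall, 362519 bp from the start (chr6:99159281-99160835), went from 70.1, 62.4, 55.1 and 72.0 to 40.8, 41.7, 34.8 and 26.2. These values were apart, with differences of −0.76 (adjusted p 5.85e-08) and −0.67 on the common scale. It held a forkhead core within 100 bp of its summit. Neither rising region did, but within 250 bp the one at 508848 bp held a core too. A region 178746 bp from the start (chr6:99343596-99344440), was called in 37C replicates 1 and 4 only, at 17.4 and 31.1, and in every 39C library, at 41.8, 44.9, 33.5 and 31.1. Another, 152552 bp from the start, was called in no 37C library and in 39C replicates 1, 2 and 3, at 27.0, 15.7 and 24.6. The promoter region at the 5′ end of the gene was not called on the common scale. The summits of the 3 regions follow.
Foxp1 rising region at 508848 bp, chr6:99013823-99013923: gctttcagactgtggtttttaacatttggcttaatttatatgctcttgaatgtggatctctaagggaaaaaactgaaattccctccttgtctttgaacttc
Foxp1 rising region at 526135 bp, chr6:98996536-98996636: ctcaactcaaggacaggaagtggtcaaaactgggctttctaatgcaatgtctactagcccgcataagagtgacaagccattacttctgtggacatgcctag
Foxp1 falling region at 362519 bp, chr6:99160152-99160252: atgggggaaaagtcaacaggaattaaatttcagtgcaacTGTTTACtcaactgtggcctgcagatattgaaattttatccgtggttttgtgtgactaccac

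**Figure D4:**
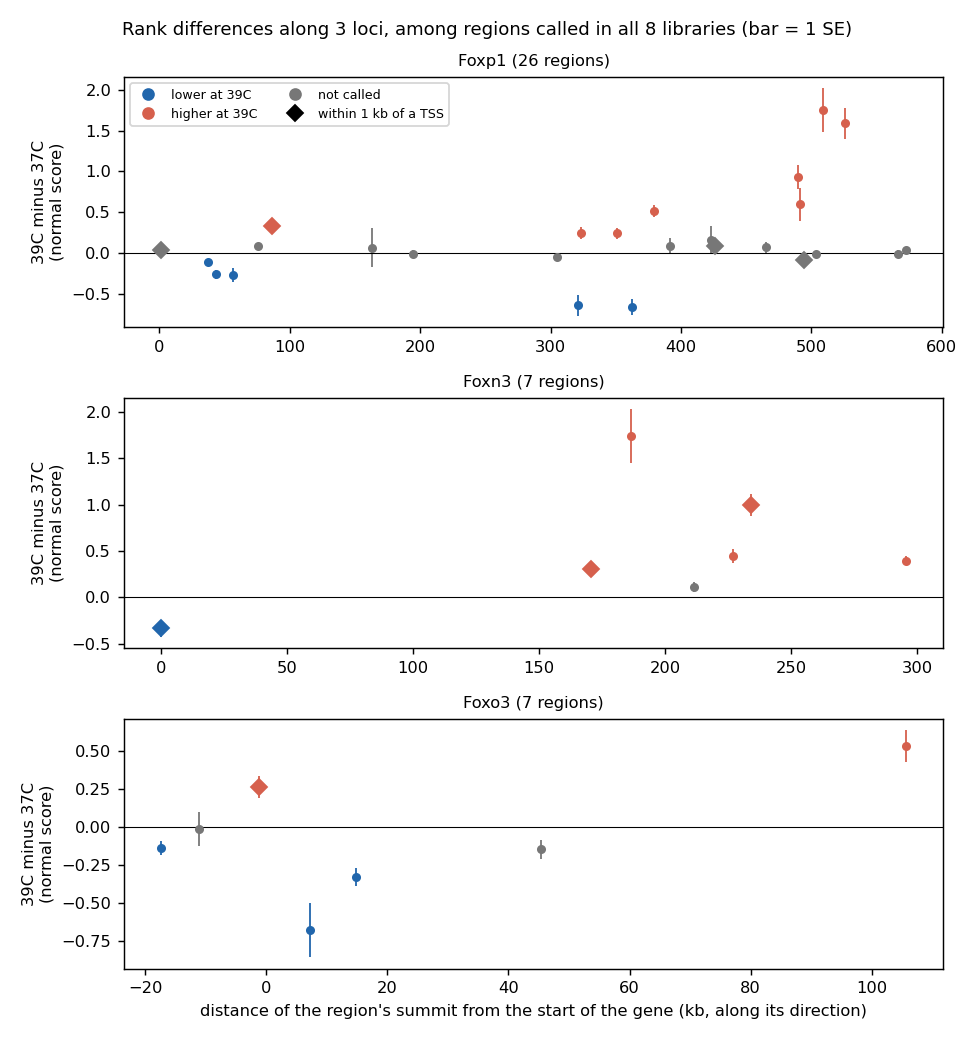
Rank difference, 39C minus 37C, in normal scores among regions called in all 8 libraries (y axes, bars 1 SE, 4 libraries per group) against the distance of the region's summit from the start of the gene in kb (x axis) for Foxp1, Foxn3 and Foxo3, with diamonds for regions within 1 kb of a TSS of the gene. The 5′ start of Foxn3 lies below 0 and its internal start above, and the 2 Foxp1 regions near 1.6 and 1.75 lie more than 500 kb from its start.

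Foxk1, a repressor of autophagy genes under nutrient-rich conditions, had a strong intronic region that rose (chr5:142437799-142446464, 8666 bp wide). It stood at 99.3, 98.7, 98.7 and 99.4 at 37C and at 99.1, 99.6, 99.6 and 99.3 at 39C. The groups overlapped, with differences of 0.18 (adjusted p 0.0279) and 0.29 on the common scale (adjusted p 0.0146), and the call in the whole list was lost without 37C replicate 2 or 3 or 39C replicate 2 or 3. The Foxk1 promoter itself had 89.5, 90.8, 89.6 and 90.3 at 37C and 88.9, 86.6, 88.4 and 87.7 at 39C. Its common-scale difference was 0.05 (adjusted p 0.541). Another start region of Foxj2 in its intron (chr6:122823929-122827188) fell from 84.2, 82.3, 82.5 and 86.0 to 74.3, 77.1, 74.2 and 69.96, by 0.34 in the whole list (adjusted p 3.99e-06) and by 0.18 on the common scale. The Foxn1 gene had a strong intronic region (chr11:78369180-78373055) at 86.9, 85.4, 86.3 and 88.3 and then at 78.2, 79.0, 78.6 and 72.7, which fell by 0.37 and by 0.22 on the common scale. A Foxn1 promoter peak was called only in 37C replicates 1, 2 and 4, near the bottom of their lists. The merged region beside Foxs1 (chr2:152923443-152934453), which also gave the common-scale value of that gene, fell by 0.38 and by 0.28. Values of these last 3 regions did not overlap. The Foxk1 summit is shown because this rising region held a forkhead core within 100 bp of it.
Foxk1 rising intron region, chr5:142440483-142440683: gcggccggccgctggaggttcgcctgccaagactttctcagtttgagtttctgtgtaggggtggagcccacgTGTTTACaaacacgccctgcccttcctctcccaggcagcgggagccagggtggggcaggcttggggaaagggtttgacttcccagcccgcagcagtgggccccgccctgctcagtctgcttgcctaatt

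The forkhead core GTAAACA was searched on both strands within 100 bp of each summit. It was found in 6 of 240 forkhead regions (2.5%, 95% Wilson interval 1.15 to 5.35%), against 2.89% of all regions, and in 1 of 42 forkhead promoter regions, against 1.53% of all promoter regions. The 6 regions were at Foxf2, Foxj1, Foxk1, Foxo4 and Foxp1, which had 2. The Foxo4 match was the one at a promoter. Of the 6 regions 5 were called in every library, and on the common scale the Foxk1 region was higher, the Foxj1 region and 1 of the Foxp1 regions were lower and the other two passed in neither direction.

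The pathway around the FOXO factors was read from lists of genes, which were chosen with earlier results of these data known. All 25 genes of FOXO signalling, the kinases, phosphatases, receptors and modifiers that set FOXO activity, had a promoter peak in every library, against 59.9% of all protein-coding genes. In the whole list 8 were lower and 2 higher (Mdm2 and Sirt1), beside the 61.1% and 0.563% of all promoters. On the common scale 0 were lower and 6 higher, beside 11.8% and 7.3%. Mdm2, a ubiquitin ligase of p53 and FOXO proteins, went from percentile 98.2 ± 0.30 to 99.2 ± 0.26 (SD, n = 4 each), and Sirt1, a FOXO deacetylase, from 93.3 ± 1.1 to 95.9 ± 0.41. Their common-scale differences were 0.47 and 0.41 (adjusted p 0.000378 and 0.000735). Akt1, Irs1 and Pdpk1, which carry the insulin signal to FOXO proteins, were among the other higher genes, with common-scale differences of 0.13 to 0.23. Of 27 FOXO target genes 22 had a promoter peak in every library, against the same 59.9%, and 5 had none (Fasl, G6pc, Igfbp1, Pck1 and Trim63, among them the liver genes of glucose production). In the whole list 10 were lower, against 61.1% of all promoters, and 1 higher (Bbc3), against 0.563%. On the common scale 5 were higher (Bbc3, Bcl2l11, Bcl6, Cdkn1a and Fbxo32), against 7.3%, and 3 lower (Ccnd1, Klf2 and Tnfsf10), against 11.8%. Cyclin D1 gene Ccnd1, which FOXO proteins repress, had a difference of −0.13, and Cdkn1a, the gene of the cell cycle inhibitor p21, of 0.15. Tnfsf10, the gene of the death ligand TRAIL, had the largest difference of the list at −1.26 (adjusted p 0.000202), its percentile going from 52.5 ± 3.6 to 11.4 ± 2.5.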

How the data were processed

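The authors prepared ATAC-seq libraries from aliquots of 50000 cells with 12 cycles of amplification, aligned the reads to mm10 with Bowtie2 2.4.1, handled them with SAMtools 1.15.1, Picard 2.26.11 and bedtools 2.30.0, and called peaks separately in each of 8 libraries with MACS3 3.0.0a7 at a q-value of 0.05, per the labels and file headers. The deposited lists give for each peak the pileup signal at its summit, which the authors did not scale for depth. They also give the fold enrichment, which per the file headers was the ratio of the pileup to a single background of the library, and the −log10 p and −log10 q that the authors' caller computed from them. The pileup, and the p and q computed from it, depend on depth, and none of the values was scaled between libraries, so only ranks within a library were compared. Because the caller used no local background, ranks by fold enrichment and by −log10 q were the same for promoters and regions (0 differed by more than 0.01 percentile).

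Peaks on 21 chromosomes were matched to GENCODE M21. A promoter peak was the strongest peak overlapping 1 kb around any annotated TSS by at least 1 bp. Peaks of all lists that overlapped by at least 1 bp were merged, and regions called in at least 2 libraries were kept. Percentiles were turned into normal scores and tested by limma 3.58.1 (R 4.3.3, trended prior) over all genes or regions called in every library, with Benjamini-Hochberg adjustment and a threshold of 0.05. Presence was tested by Fisher's exact test, and the number of regions at a locus by an exact permutation test over 70 assignments. Scripts were checked on simulated data. The alternatives were a stricter q, equal numbers of peaks, other distances, flanks and overlaps, another rank scale, the replicate number as a block, and fewer libraries. Sequences were read from RefSeq GRCm38.p6 on the plus strand.

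Values in every library are given for promoters called by the rank test in either direction, promoters whose number of libraries differed by at least 2 between temperatures, the 3 highest and 3 lowest promoters, FOXO genes, restricted regions and the 5 regions with the lowest adjusted p in each direction. The members and the gene lists were chosen with earlier results of these data known. Python 3.11.15, pandas 2.3.3 and SciPy 1.17.1 were used. Values of 2 genes are not reported here.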

Additional observations from a re-analysis of the deposited data

Results flagged for a closer look

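The promoter percentile of Foxp4, a broadly expressed FOXP repressor, was 96.1 in 37C replicate 3, while the other 37C libraries lay between 95.87 and 95.9. The gap took 0.832 of the range of the group, just above Dixon's 95% critical value for 4 samples. Of 60 groups of 4 libraries examined in this way over the forkhead promoters 1 was marked, and chance alone marks about 3.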

How the results depend on the processing

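With every list trimmed to 54845 peaks, forkhead promoters lower and higher at 39C numbered 2 and 2, lower and higher regions 29 and 27, regions restricted to 37C and 39C 3 and 5, loci with more regions at 37C and 39C 3 and 2, and promoters restricted to 37C 0. Ranks among regions called in all 8 libraries gave 3 lower promoters and 29 lower and 33 higher regions. In the 6 libraries below 100 M fragments 7 promoters were lower and 1 higher, 38 regions were lower, 2 promoters were restricted to 37C and 1 region to 39C. With −log10 q of at least 5 there were 2 restricted promoters, 5 regions restricted to 37C and 3 higher regions, and 500 bp around a TSS gave 2 restricted promoters. With no flank 44 regions were lower, 3 were restricted to 37C and 4 loci had more regions at 37C; with 50 kb 25 regions were restricted to 37C, 1 to 39C and 13 loci had more at 37C. When 50% of a region had to be covered, 51 regions were lower, 3 higher and 12 loci had more at 37C. The forkhead core was in 6.25% of forkhead regions within 250 bp, against 6.72% of all regions. The cause was not tested, and fewer libraries or regions are part of several of these settings.

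Without each library in turn, lower promoters numbered 10 to 18 and higher 1 to 2, restricted promoters 1 to 2, lower regions 62 to 87 and higher 2 to 7, regions restricted to 37C 7 to 22 and to 39C 0 to 1, and loci with more regions at 37C 7 to 11. Among promoters followed through every alternative, differences changed sign at Foxa3 (0.016 with equal numbers and 0.022 on the common scale), Foxf2 (0.0085 and 0.013), Foxk1 (0.038 and 0.046), Foxl1 (0.070 and 0.075, 0.015 within 5 kb, 0.056 below 100 M fragments, and −0.084 to 0.0042 without single libraries), Foxl2 (0.197 and 0.216), Foxo1 (0.13 and 0.14, 0.0067 with the stricter q, and −0.040 to 0.018 without single libraries), Foxo4 (0.032 and 0.044) and Foxo6 (0.042 and 0.047). Others did so on the common scale, among them Foxc2, Foxj2, Foxj3, Foxk2 and Foxp4 (0.0483 to 0.147). Of 580 values for single promoters and regions under the alternatives 468 kept their direction and side of the threshold, 79 lost the call, 10 gained it and 23 changed sign.

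Libraries with the same replicate number did not deviate together (correlations of −0.26 to 0.22 over promoters and −0.33 to 0.23 over regions). With a replicate block 51 regions were lower and 2 higher, and 12 promoters were lower and 2 higher. A peak missing from a list was not called at that library's depth, which does not show a closed region. The part of depth was not tested: 37C replicate 3, the shallowest library at 49.8 M fragments, had 74026 peaks, more than any 39C library.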

Other observations

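Regions outside promoters rose on the common scale at 3 more loci, chosen after their values were seen. Upstream of Foxe3, the lens gene, an intergenic region (chr4:114937330-114938047) stood at 40.9, 38.7, 37.7 and 46.9 at 37C and at 44.4, 52.3, 56.6 and 42.4 at 39C in the whole lists. These values overlapped, and the common-scale difference was 0.94 (SE 0.119). An intergenic region near Foxc1, a gene of mesenchyme and eye development (chr13:31792194-31793086), had 58.9, 54.5, 47.5 and 61.2 and then 59.96, 55.1, 58.7 and 50.3, with a common-scale difference of 0.49 (SE 0.066). An intronic region of Foxo6 (chr4:120270191-120273081) had 77.9, 76.0, 76.4 and 80.2 and then 79.6, 77.9, 79.1 and 73.3, with a common-scale difference of 0.25 (SE 0.035). In the whole lists none of these 3 regions passed the test.

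Forkhead promoters were rich in CpG. The median GC content around their start was 62.9% against 54.7% over all protein-coding genes, the median ratio of observed to expected CpG was 0.763 against 0.552, and the median width of the promoter peak was 2846 bp against 2213 bp. Foxk2, a broadly expressed gene, had a CpG ratio of 1.17, and Foxr2, which had no promoter peak in any library, had 0.129. Foxi3 and Foxp2 had ratios of 0.821 and 0.834 and no promoter peak.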
